A study of Homo sapiens with 6 samples.

Results

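The genes described here encode the enzymes and carriers of glycolysis, glycogen turnover and the pentose phosphate pathway, with the kinases and subunits that steer pyruvate. They were a list of 48 gene symbols, and each had 1 row among the 50868 genes of every count table. DU145, a human prostate cancer line, was compared after knockdown of RCC2 (3 libraries, siRCC2, labelled RCC2 knockdown) and with a control (3 libraries, siCtrl, labelled RCC2 wild type). All 6 libraries came from total RNA of this 1 line. The number of siRNAs and the time of harvest are not known here. Nothing says that the 3 libraries of a group are separate cultures, so each p-value covers the spread of these libraries alone, and that spread may be technical.

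Glycolysis splits glucose into pyruvate in the cytosol, with an upper stretch that spends ATP to make and cleave fructose bisphosphate and a lower stretch that yields ATP and NADH. Pyruvate then becomes lactate, which leaves the cell, or acetyl-CoA in mitochondria. The pentose phosphate pathway draws off glucose 6-phosphate for NADPH and ribose, and glycogen stores it. Most steps have several genes for the same reaction, which differ in tissue distribution and in their regulation.

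Total counts ranged from 17377191 to 19895431 in siRCC2 libraries and from 18206357 to 19808215 in siCtrl libraries. RCC2, the targeted gene, had 59.3, 57.6 and 54.8 CPM (counts scaled to a common library size with TMM factors) in siRCC2 replicates 1 to 3, against 198, 194 and 191 CPM in siCtrl replicates 1 to 3. Epithelial markers EPCAM, CDH1, KRT8, KRT18 and KRT19 were detected in every library. Of 4 leukocyte markers 3 were under 20 counts in every library, PTPRC among them, and the sum, mostly CD14, was 36 to 64 counts in siRCC2 libraries and 69 to 77 in siCtrl libraries. All 3 endothelial markers were under 20 counts. The 4 fibroblast markers summed to 164 to 241 counts in siRCC2 libraries and 254 to 282 in siCtrl libraries, mostly COL1A1, while DCN and PDGFRA had at most 6 and 3 counts; the part of these markers in the results was not tested. The second principal component of log CPM (16.4% of the variance) set siRCC2 replicate 1 apart, at 41.5, from siRCC2 replicates 2 and 3 at -13.3 and -35.2. In these bulk libraries fewer cells of a kind and less RNA per cell cannot be told apart.

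All 48 genes passed the filter on low counts. In siRCC2 libraries 15 rose, 15 fell and 18 did not pass at an adjusted p under 0.05 (edgeR quasi-likelihood test, Benjamini-Hochberg over 16536 genes). That is 62.5% of the list, where 41.8% of all tested genes were called. The listed genes were chosen with earlier results of these data known, so this comparison is a description and not a test. Without siRCC2 replicate 2, 12 rose and 9 fell. Over all genes, 5112 were called in that fit, against 6911 with every library. The libraries of the groups did not overlap for 32 of the 48 genes (66.7%), against 55.3% of all tested genes. The listed genes lie at higher levels than most, with a median of 85.6 CPM in siCtrl, against 18.9 CPM over all tested genes. Among those with a mean of at least 20 CPM, 25 of 40 listed genes (62.5%) and 49.4% of all such genes were called. The median log2 fold change of the list was 0.02, against -0.02 over all tested genes. Changes of at least 2-fold occurred in 5 of the 48, and 12.1% of all tested genes were called with such a change. These were PYGM, ALDOC and PFKFB4 upward and PCK2 and SLC2A3 downward.

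**Figure D1:**
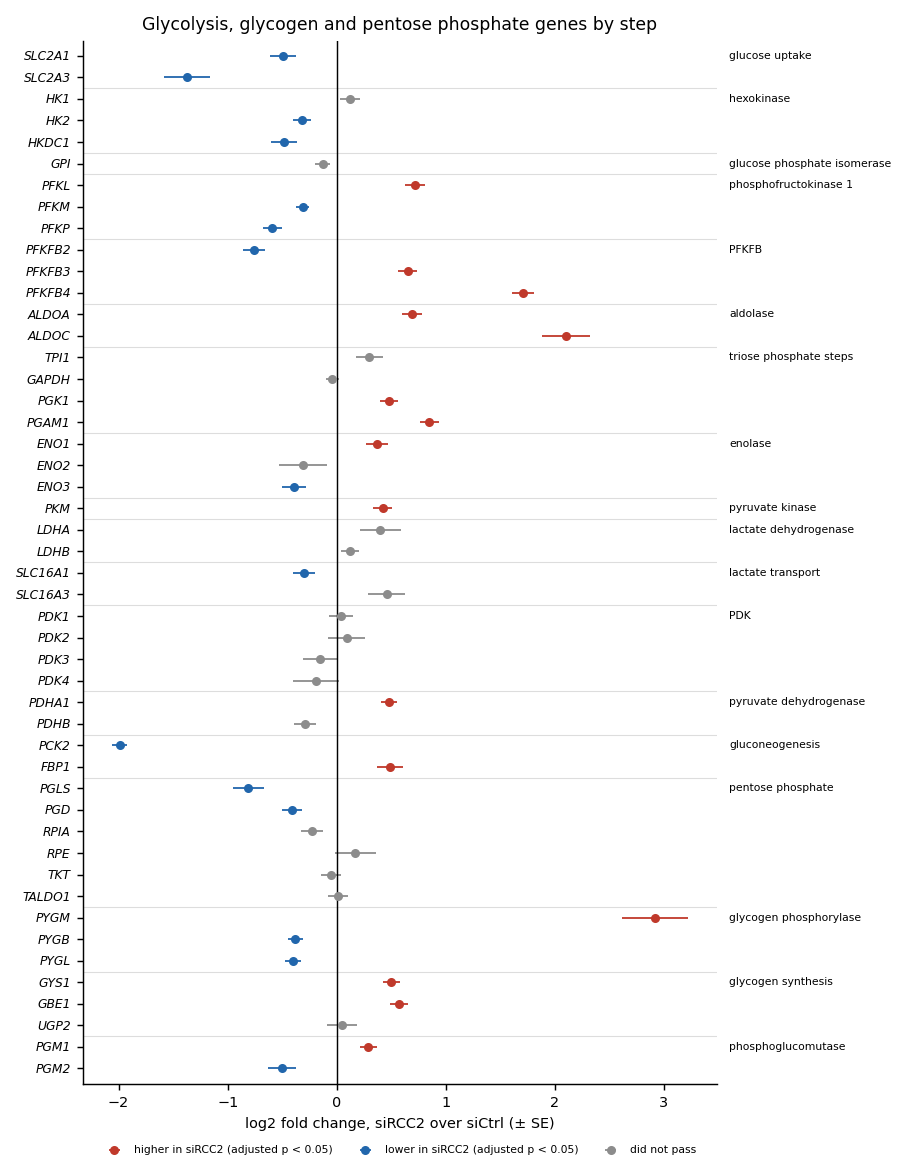
Log2 fold change of siRCC2 over siCtrl (x axis, points with SE) for the 48 genes, listed by pathway step from top to bottom. Several steps hold both a red point, higher in siRCC2, and a blue point, lower in siRCC2, and the fold changes range from -1.99 for PCK2 to 2.92 for PYGM.

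Promoter windows, from 250 bases before to 50 after a RefSeq transcript start on GRCh38.p14, were given for 44 of the 48 genes; SLC2A3, PFKFB2, SLC16A1 and PYGM have none in that table. They were searched on both strands for ACGTG, the core of the site bound by hypoxia-inducible factors, and for CACGTG, the E-box core bound by MYC, USF and MondoA. Every CACGTG holds 2 overlapping ACGTG matches, 1 on each strand. ACGTG occurred in 26 of 76 windows of the listed genes (34.2%) and in 21.4% of all 35116 windows, and CACGTG in 9 of 76 (11.8%) and in 7.26% of all windows. Counted by gene, ACGTG was present for 22 of the 44 listed genes, against 24.9% of all 27305 genes with a window. The 44 genes had 76 windows and the 27305 genes had 35116, so the number of windows per gene differed. By call, ACGTG was present for 6 of 14 genes that rose, 5 of 12 that fell and 11 of 18 that did not pass. The 6 windows printed here show this, with capitals marking the matches: ALDOC and PGK1 rose, PGM2 fell and LDHA did not pass, while PFKFB4, which rose, and PCK2, which fell, hold neither motif.
ALDOC, chr17:28576846-28577145, minus strand: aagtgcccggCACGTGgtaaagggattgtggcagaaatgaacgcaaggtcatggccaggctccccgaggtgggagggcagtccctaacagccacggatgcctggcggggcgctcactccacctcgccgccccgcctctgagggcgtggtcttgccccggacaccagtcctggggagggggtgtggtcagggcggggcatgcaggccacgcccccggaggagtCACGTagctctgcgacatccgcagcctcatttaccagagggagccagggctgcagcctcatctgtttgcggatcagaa
PGK1, chrX:78103998-78104297, plus strand: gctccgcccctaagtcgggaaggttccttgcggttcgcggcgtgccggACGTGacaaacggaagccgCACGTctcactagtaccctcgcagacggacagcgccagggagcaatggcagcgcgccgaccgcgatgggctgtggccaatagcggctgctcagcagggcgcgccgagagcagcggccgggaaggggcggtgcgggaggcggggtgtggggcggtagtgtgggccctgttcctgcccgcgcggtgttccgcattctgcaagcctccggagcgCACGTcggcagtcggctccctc
PGM2, chr4:37826436-37826735, plus strand: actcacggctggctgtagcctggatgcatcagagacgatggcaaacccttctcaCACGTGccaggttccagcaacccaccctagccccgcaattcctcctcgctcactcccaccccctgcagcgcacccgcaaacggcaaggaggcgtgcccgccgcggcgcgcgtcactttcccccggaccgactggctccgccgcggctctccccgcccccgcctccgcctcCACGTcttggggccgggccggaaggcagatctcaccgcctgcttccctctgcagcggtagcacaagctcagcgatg
LDHA, chr11:18394313-18394612, plus strand: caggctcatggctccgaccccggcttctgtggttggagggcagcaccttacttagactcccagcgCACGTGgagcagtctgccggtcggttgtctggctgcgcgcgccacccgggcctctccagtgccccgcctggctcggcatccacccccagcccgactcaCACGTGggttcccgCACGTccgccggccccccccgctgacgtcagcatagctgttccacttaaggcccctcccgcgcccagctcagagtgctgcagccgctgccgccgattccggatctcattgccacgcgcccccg
PFKFB4, chr3:48556754-48557053, minus strand: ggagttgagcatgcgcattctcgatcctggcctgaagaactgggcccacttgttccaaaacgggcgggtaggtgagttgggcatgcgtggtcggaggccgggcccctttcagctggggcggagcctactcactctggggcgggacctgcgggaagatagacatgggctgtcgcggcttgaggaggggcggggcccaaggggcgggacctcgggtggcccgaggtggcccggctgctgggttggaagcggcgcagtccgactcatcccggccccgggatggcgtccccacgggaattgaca
PCK2, chr14:24094061-24094360, plus strand: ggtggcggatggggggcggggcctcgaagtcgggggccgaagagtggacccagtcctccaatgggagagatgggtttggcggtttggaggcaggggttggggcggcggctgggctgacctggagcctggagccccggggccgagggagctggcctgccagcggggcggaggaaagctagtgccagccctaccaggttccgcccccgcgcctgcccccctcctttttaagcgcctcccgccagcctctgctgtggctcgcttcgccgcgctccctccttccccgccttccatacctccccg

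Both listed glucose transporters fell, where 21.1% of all tested genes fell. SLC2A1 (GLUT1; chromosome 1, 42925375 to 42959173, minus strand) is the basal glucose carrier of most cells. It had 309.6, 349.7 and 266.4 CPM in siRCC2 replicates 1 to 3, against 477, 381 and 441 CPM in siCtrl replicates 1 to 3. The groups did not overlap, and the log2 fold change was -0.49 ± 0.12 (SE; edgeR adjusted p = 0.0166). The call was lost without siCtrl replicate 1 (adjusted p = 0.0613) or siCtrl replicate 3 (adjusted p = 0.0556). SLC2A3 (GLUT3; chromosome 12, 7919230 to 7936275), a high-affinity carrier best known from neurons, had 39, 67 and 39 counts in siRCC2 libraries, against 142, 125 and 127 counts in siCtrl libraries. At 2.62 ± 0.739 CPM in siRCC2 libraries and 6.78 ± 0.253 CPM in siCtrl libraries, its log2 fold change was -1.37 ± 0.21 (edgeR adjusted p = 0.00224). SLC2A14 shares 20.3% of the 50-base stretches of the longest SLC2A3 transcript, and the sum of both fell by 1.16 on the log2 scale. Per kilobase of exon, SLC2A1 made up 99.4% ± 0.0973 of the pair's counts in siRCC2 libraries and 98.8% ± 0.124 in siCtrl libraries (SD, n = 3 each). TXNIP, which is not an enzyme but an arrestin that removes GLUT1 from the cell surface, had 35.4, 29.4 and 30.0 CPM in siRCC2 libraries, against 1.98, 1.94 and 1.65 CPM in siCtrl libraries (log2 fold change 4.08 ± 0.14).

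The hexokinases trap glucose as glucose 6-phosphate. HK1, the most abundant of the family per length, had 294, 253 and 235 CPM in siRCC2 libraries, against 233, 245 and 240.0 CPM in siCtrl libraries. The groups overlapped and HK1 did not pass (0.12 ± 0.09, adjusted p = 0.317). HK2, the isozyme most tied to cancer cells, fell, with 36.8 ± 2.06 CPM in siRCC2 libraries and 45.8 ± 0.912 CPM in siCtrl libraries (SD, n = 3 each; log2 fold change -0.32 ± 0.08, edgeR adjusted p = 0.0187). HKDC1, a hexokinase-like enzyme, fell to 18.0 ± 1.66 CPM in siRCC2 libraries, against 25.0 ± 2.57 CPM in siCtrl libraries (-0.48 ± 0.12, adjusted p = 0.0181). HK2 lost its call without any 1 of the siCtrl libraries or siRCC2 replicate 2 (adjusted p from 0.0551 to 0.0708), and HKDC1 without siCtrl replicate 1 or 2 or siRCC2 replicate 2 (0.0599 to 0.0872). The share of HK1 in the family, per kilobase, was 80.0% ± 1.94 in siRCC2 libraries and 73.9% ± 1.41 in siCtrl libraries, and the groups did not overlap. The family's summed level overlapped between the groups, at 51.7 ± 4.79 CPM per kilobase in siRCC2 libraries and 51.5 ± 0.926 in siCtrl libraries (two-sided exact permutation p = 1.0). GPI, which turns glucose 6-phosphate into fructose 6-phosphate, did not pass (-0.13 ± 0.07, adjusted p = 0.192).

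Shares within families were tested over the 6 libraries by a two-sided exact permutation test, for which 3 libraries against 3 give at best p = 0.1. Of 24 shares in 11 families (a pair of genes counted as 1 share; shares of larger families also depend on each other, since they add up to the whole), the groups did not overlap for 16, each with an exact p = 0.1 (0.15 after Benjamini-Hochberg adjustment over the 24), so no share could pass and each is given as a size with its spread.

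Phosphofructokinase 1 commits sugar to glycolysis, and its 3 genes moved apart. PFKL, the liver-type subunit (chromosome 21, 44300051 to 44327376), had 259, 228 and 212 CPM in siRCC2 libraries, against 151, 132 and 140.5 CPM in siCtrl libraries. It rose by 0.72 ± 0.09 (log2, SE; edgeR adjusted p = 0.00113). PFKP, the platelet type and the most abundant per length (chromosome 10, 3066333 to 3137712), had 521, 433 and 437 CPM in siRCC2 libraries, against 732, 712 and 653 CPM in siCtrl libraries. It fell (-0.59 ± 0.09, adjusted p = 0.00233), and so did PFKM, the muscle type, with 96.1 ± 2.09 CPM in siRCC2 libraries and 119 ± 2.72 CPM in siCtrl libraries (-0.31 ± 0.06, adjusted p = 0.00686). The 2 groups did not overlap for any of the 3 genes. PFKL made up 19.3% ± 0.649 of the family per kilobase in siRCC2 libraries and 8.98% ± 0.603 in siCtrl libraries. PFKP made up 70.9% ± 0.898 in siRCC2 libraries and 81.8% ± 0.734 in siCtrl libraries, so it stayed the main subunit in both. The summed level was lower, at 135 ± 13.1 CPM per kilobase in siRCC2 libraries and 177 ± 9.11 in siCtrl libraries. The call of PFKM was lost without siRCC2 replicate 2 (adjusted p = 0.0666), and the locus of SENP1, which fell by 0.48, overlaps PFKM.

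The PFKFB enzymes make and break fructose 2,6-bisphosphate, the strongest activator of phosphofructokinase 1, and their genes also moved apart. PFKFB4 (chromosome 3, 48517684 to 48562015, minus strand), a stress- and hypoxia-inducible form, had 1208, 1206 and 1141 counts in siRCC2 libraries, against 416, 369 and 373 counts in siCtrl libraries. At 65.0 ± 7.06 CPM in siRCC2 libraries and 19.9 ± 0.712 CPM in siCtrl libraries it was 3.26-fold higher (log2 fold change 1.71 ± 0.10, edgeR adjusted p = 6.99e-05). PFKFB3, whose kinase activity far exceeds its phosphatase activity, had 149, 132 and 129 CPM in siRCC2 libraries, against 89.7, 80.2 and 91.0 CPM in siCtrl libraries (0.65 ± 0.09, adjusted p = 0.00125). PFKFB2, the heart-type form regulated by phosphorylation (chromosome 1, 207034366 to 207081024), had 42.3, 46.0 and 50.9 CPM in siRCC2 libraries, against 77.2, 83.7 and 74.9 CPM in siCtrl libraries. Every siRCC2 library was below every siCtrl library (-0.76 ± 0.10, adjusted p = 0.000957). YOD1, which overlaps the PFKFB2 locus, did not pass. In the family, PFKFB4 held 28.3% ± 1.19 per kilobase in siRCC2 libraries and 12.9% ± 0.473 in siCtrl libraries, and PFKFB2 held 12.2% ± 1.82 in siRCC2 libraries and 30.6% ± 2.42 in siCtrl libraries. PFKFB3 held most in both groups (59.5% ± 0.637 in siRCC2 and 56.4% ± 2.75 in siCtrl). The sum of the 3 was 37.5 ± 2.49 CPM per kilobase in siRCC2 libraries and 25.2 ± 0.536 in siCtrl libraries. All 3 calls held under every scaling, test, filter and left-out library tried.

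**Figure D2:**
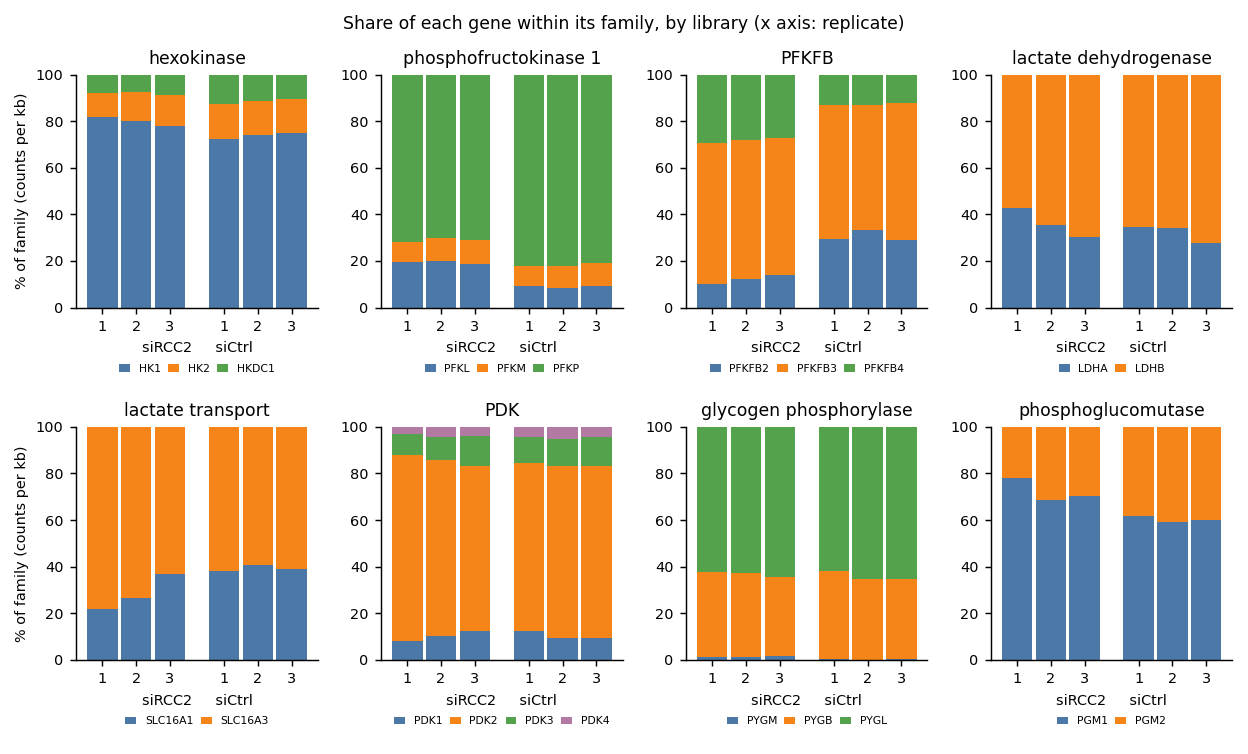
Share of each gene in its family's counts per kilobase of exon (y axis, percent) in siRCC2 replicates 1 to 3 (left bars) and siCtrl replicates 1 to 3 (right bars) for 8 families. PFKL and PFKFB4 take a larger share in each siRCC2 library than in any siCtrl library, whereas the phosphorylase shares of PYGB and PYGL overlap.

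From aldolase to lactate dehydrogenase, 6 of 12 genes rose, 1 fell and 5 did not pass (20.7% of all tested genes rose and 21.1% fell). ALDOA and ALDOC cleave fructose bisphosphate, and both rose. ALDOA (chromosome 16, 30053090 to 30070457), the main aldolase, had 2127, 1805 and 1734 CPM in siRCC2 libraries, against 1215, 1173 and 1129 CPM in siCtrl libraries (0.69 ± 0.09, edgeR adjusted p = 0.00106). ALDOC, the brain-type aldolase (chromosome 17, 28573115 to 28577264, minus strand), had 140, 182 and 165 counts in siRCC2 libraries, against 28, 45 and 46 counts in siCtrl libraries. At 8.83 ± 0.482 CPM in siRCC2 libraries and 2.06 ± 0.583 CPM in siCtrl libraries its rise was the larger (2.10 ± 0.22, adjusted p = 0.000469), yet it was only 0.627% ± 0.0860 of aldolase counts per kilobase in siRCC2 libraries and 0.236% ± 0.0722 in siCtrl libraries. ALDOC lies within the span of AC005726.1, which rose by 0.73 ± 0.15 (adjusted p = 0.00824), and how reads were split between them was not tested. Of the 50-base stretches of ALDOA, 52.3% occur in transcripts of other genes, most of them (50.6%) in AC093512.2. The only counted gene that overlaps the ALDOA locus, AC093512.1, had at most 6 counts in a library.

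TPI1 (19.5% of its stretches are also in TPI1P1), which interconverts the triose phosphates, did not pass, with 933, 827 and 748 CPM in siRCC2 libraries, against 631, 788 and 617 CPM in siCtrl libraries (0.30 ± 0.12, edgeR adjusted p = 0.0853). It passed without siCtrl replicate 2 (0.42, adjusted p = 0.0321) and without siRCC2 replicate 3 (0.38, adjusted p = 0.0494). TPI1P1 rose by 0.36 ± 0.11 (adjusted p = 0.034), and TPI1 summed with it did not pass (0.31, adjusted p = 0.0694). GAPDH, widely used as a reference transcript, had 6626, 6196 and 5914 CPM in siRCC2 libraries, against 6438, 6392 and 6452 CPM in siCtrl libraries, and the groups overlapped (-0.04 ± 0.06, adjusted p = 0.627). The next steps after it rose. PGK1, which makes the first ATP of the pathway, had 801, 724 and 655 CPM in siRCC2 libraries, against 522, 527 and 511 CPM in siCtrl libraries (0.48 ± 0.08, adjusted p = 0.00344). PGAM1, the phosphoglycerate mutase (chromosome 10, 97426160 to 97433441), had 10550, 10989 and 9632 counts in siRCC2 libraries, against 6517, 5828 and 6000 counts in siCtrl libraries. It rose by 0.85 ± 0.09 (adjusted p = 0.00051), to 569.7 ± 66.5 CPM in siRCC2 libraries, against 315.5 ± 7.23 CPM in siCtrl libraries. AC012085.1 holds 37.4% of the PGAM1 stretches and rose as well (0.83 ± 0.10), and PGAM1 summed with it rose by 0.84.

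ENO1, the main enolase, had 7972, 6583 and 6166 CPM in siRCC2 libraries, against 5304, 5301 and 5464 CPM in siCtrl libraries. It rose by 0.37 ± 0.10 (log2, SE; edgeR adjusted p = 0.0227). Without siRCC2 replicate 1 the value was 0.24 (adjusted p = 0.0109), and the call was lost without any 1 of the siCtrl libraries or without siRCC2 replicate 2 (adjusted p from 0.0664 to 0.0799). ENO2, the neuronal enolase, did not pass, with 65.2, 40.9 and 53.7 CPM in siRCC2 libraries, against 72.7, 76.7 and 49.0 CPM in siCtrl libraries. ENO3, the muscle enolase, had 198, 240 and 221 counts in siRCC2 libraries, against 310, 315 and 283 counts in siCtrl libraries (-0.39 ± 0.11, adjusted p = 0.0262). Its call was lost without siCtrl replicate 1 or 2 or siRCC2 replicate 2 or 3 (0.0615 to 0.0937), and its locus overlaps PFN1, which had 33471 to 34724 counts in siRCC2 libraries and 29850 to 38005 counts in siCtrl libraries. PKM, the pyruvate kinase, rose, with 4366, 3508 and 3578 CPM in siRCC2 libraries, against 2797, 2948 and 2789 CPM in siCtrl libraries (0.42 ± 0.09, adjusted p = 0.0103). Counts per gene do not separate its M1 and M2 splice forms.

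Lactate dehydrogenase turns pyruvate into lactate and back. LDHA had 934, 732 and 537 CPM in siRCC2 libraries, against 578, 591 and 495 CPM in siCtrl libraries, and did not pass (0.40 ± 0.19, edgeR adjusted p = 0.128). LDHB, the more abundant per length, had 601, 640.5 and 593 CPM in siRCC2 libraries, against 529, 543 and 615 CPM in siCtrl libraries (0.12 ± 0.08, adjusted p = 0.245). Of its stretches 57.3% are also in AC010197.2. The only counted gene that overlaps the LDHB locus, AC010197.1, had 0 counts. Of the lactate carriers, SLC16A3 (MCT4), which exports lactate, had 405, 311 and 243 CPM in siRCC2 libraries, against 245, 218 and 235 CPM in siCtrl libraries (0.46 ± 0.17, adjusted p = 0.0703). LDHA and SLC16A3 were widely spread over the siRCC2 libraries: replicate 1 was highest and replicate 3 lay within the siCtrl range. Without siRCC2 replicate 3 both passed, at 0.59 (adjusted p = 0.0128) and 0.62 (adjusted p = 0.00914). Without siRCC2 replicate 1 the values were smaller, at 0.18 for LDHA (adjusted p = 0.34) and 0.24 for SLC16A3 (adjusted p = 0.142). SLC16A3 also passed with DESeq2 (0.0431). SLC16A1 (MCT1), which carries lactate in either direction, had 67.3, 66.8 and 83.0 CPM in siRCC2 libraries, against 89.3, 89.1 and 88.6 CPM in siCtrl libraries. It was just under the threshold (-0.30 ± 0.10, adjusted p = 0.0484) and lost its call with DESeq2 (0.0597) and without each library in turn except siRCC2 replicate 3 (0.0644 to 0.155). CSNK1D, whose locus overlaps SLC16A3, rose by 0.58.

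The level of these genes followed 1 library in part. The siRCC2 library with the highest CPM was replicate 1 for 9 of the 12 genes from aldolase to lactate dehydrogenase, for 12 of the 15 listed genes that rose and for 31 of all 48, against 40.2% of all tested genes. The summed level of the 12 genes was 25083, 21644 and 20505 CPM in siRCC2 libraries, against 18428, 18675 and 18448 CPM in siCtrl libraries, so the groups did not overlap with or without that library. This sum rests mostly on the abundant genes and does not show a rise of each. Mean CPM in siRCC2 and siCtrl libraries was 6907 and 5356 for ENO1 and 3817.5 and 2844.6 for PKM. For GAPDH, which did not pass, it was 6245 and 6427.5. Without siRCC2 replicate 1, the log2 fold changes of ALDOA, PGK1, PGAM1 and PKM were 0.58, 0.39, 0.75 and 0.30, and all 4 kept an adjusted p of 0.00325 or less. What sets this library apart was not tested.

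**Figure D3:**
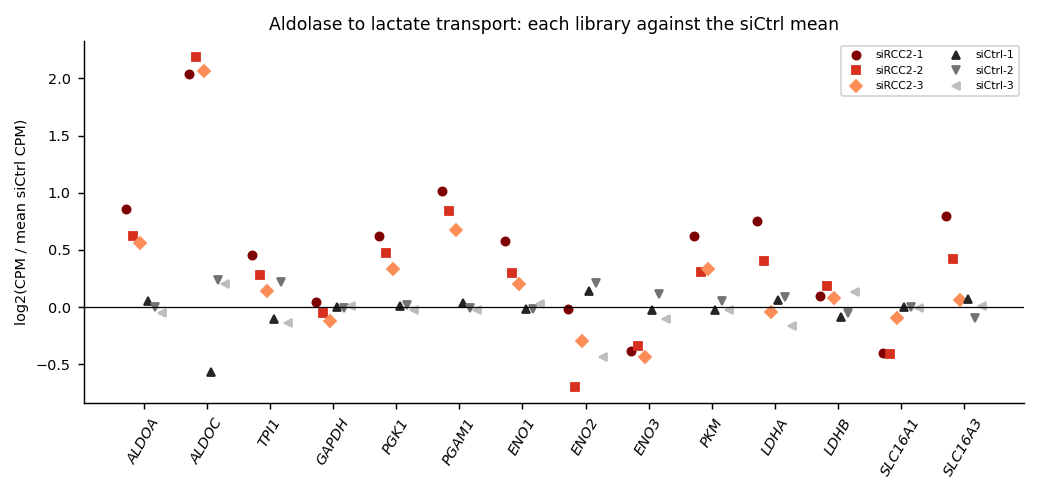
Log2 ratio of the CPM in each library to the mean CPM of the siCtrl libraries (y axis) for genes from aldolase to lactate transport (x axis); red symbols are siRCC2 replicates 1 to 3 and grey symbols siCtrl replicates 1 to 3. All siRCC2 symbols of ALDOA, ALDOC, PGK1, PGAM1, ENO1 and PKM lie above the siCtrl symbols, with replicate 1 mostly highest, while GAPDH lies near 0 in each library.

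Pyruvate dehydrogenase carries pyruvate into acetyl-CoA, and the PDK kinases switch it off. None of the 4 kinases passed, where 41.8% of all tested genes were called. PDK2, the most abundant per length, had 63.5, 54.2 and 42.5 CPM in siRCC2 libraries, against 42.1, 53.3 and 54.6 CPM in siCtrl libraries (0.09 ± 0.17, edgeR adjusted p = 0.682). PDK1, a target of hypoxia-inducible factors, had 19.3 ± 1.73 CPM in siRCC2 libraries and 18.8 ± 0.412 CPM in siCtrl libraries (0.04 ± 0.11, adjusted p = 0.809). PDK3 (-0.15 ± 0.16) and PDK4 (-0.19 ± 0.21) were below 10 CPM in every library. PDHA1, the catalytic alpha subunit (chromosome X, 19343893 to 19361705), rose, with 73.0, 75.5 and 73.0 CPM in siRCC2 libraries, against 52.0, 52.1 and 55.1 CPM in siCtrl libraries (0.48 ± 0.07, adjusted p = 0.00185). PDHB, its beta partner, was lower in each siRCC2 library, at 39.9 ± 3.75 CPM, than in each siCtrl library, at 48.9 ± 2.94 CPM, and narrowly missed the threshold (-0.29 ± 0.10, adjusted p = 0.0512). It passed with upper-quartile scaling (0.0352), total counts alone (0.0314), limma-voom (0.0480) and a filter at 1 CPM (0.0439).

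Of the 2 listed genes of gluconeogenesis, 1 fell and 1 rose, where 41.8% of all tested genes were called. PCK2 (chromosome 14, 24094053 to 24110598), the mitochondrial phosphoenolpyruvate carboxykinase, is known as a target of the stress factor ATF4. It had 606, 643 and 683 counts in siRCC2 libraries, against 2785, 2598 and 2750 counts in siCtrl libraries. The level was 35.2 ± 1.83 CPM in siRCC2 libraries and 140.0 ± 1.75 CPM in siCtrl libraries, a log2 fold change of -1.99 ± 0.07 (edgeR adjusted p = 2e-05), the largest fall of the list. Under every alternative tried its log2 fold change lay between -2.06 and -1.93. FBP1, fructose bisphosphatase, which opposes phosphofructokinase, was at 15.2 ± 1.16 CPM in siRCC2 libraries and 10.8 ± 0.711 CPM in siCtrl libraries (0.49 ± 0.12, adjusted p = 0.0128), and its call was lost without siCtrl replicate 1 or 3 or siRCC2 replicate 2 (0.0517 to 0.0539).

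In the pentose phosphate pathway 2 of 6 genes fell, 0 rose and 4 did not pass, so 33.3% were called, which is not above the 41.8% of all tested genes. PGM2, which acts mainly on pentose phosphates and fell too, is counted with the phosphoglucomutases. The 2 that fell among the 6 act in the oxidative branch, which yields NADPH. PGLS, the lactonase (chromosome 19, 17511629 to 17521288), had 527, 517 and 446 counts in siRCC2 libraries, against 949, 814 and 1028 counts in siCtrl libraries, or 27.3 ± 4.28 CPM in siRCC2 libraries and 47.97 ± 4.61 CPM in siCtrl libraries (-0.81 ± 0.14, edgeR adjusted p = 0.00325). PGD, 6-phosphogluconate dehydrogenase, had 524, 458 and 425 CPM in siRCC2 libraries, against 648, 602 and 621 CPM in siCtrl libraries (-0.41 ± 0.09, adjusted p = 0.00878), a call lost without siRCC2 replicate 2 (0.0747). In the non-oxidative branch, which shuffles sugars between pathways, RPIA (-0.23 ± 0.10), RPE (0.17 ± 0.19), TKT (-0.05 ± 0.09) and TALDO1 (0.01 ± 0.09) did not pass. The transketolase TKT, per length the most abundant of the branch, had 1416, 1184 and 1127 CPM in siRCC2 libraries, against 1289, 1289 and 1272 CPM in siCtrl libraries, and without siRCC2 replicate 1 it was lower (-0.16, adjusted p = 0.0350).

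Of 8 genes, 3 glycogen phosphorylases, 3 of glycogen synthesis and 2 phosphoglucomutases, 4 rose and 3 fell. Of all tested genes 20.7% rose and 21.1% fell. PGM2, which acts mainly on pentose phosphates, is among the 3 that fell. PYGM, the muscle glycogen phosphorylase (chromosome 11, 64746389 to 64760297, minus strand), had 146, 163 and 224 counts in siRCC2 libraries, against 31, 13 and 30 counts in siCtrl libraries. At 9.66 ± 1.82 CPM in siRCC2 libraries and 1.26 ± 0.486 CPM in siCtrl libraries it had the largest fold change of the list (2.92 ± 0.30, edgeR adjusted p = 0.000418), and the siCtrl values rest on few reads. The other two phosphorylases fell. PYGL, the liver type and the most abundant per length, had 432, 417 and 415 CPM in siRCC2 libraries, against 516, 576 and 574 CPM in siCtrl libraries (-0.40 ± 0.07, adjusted p = 0.00312). PYGB, the brain type, had 234, 222 and 203 CPM in siRCC2 libraries, against 294, 285 and 280.5 CPM in siCtrl libraries (-0.38 ± 0.07, adjusted p = 0.00533). ABHD12, whose locus overlaps PYGB, rose by 1.19. PYGM was 1.40% ± 0.308 of phosphorylase counts per kilobase in siRCC2 libraries and 0.141% ± 0.0564 in siCtrl libraries. The family's summed level, carried by PYGL and PYGB, was 139 ± 5.09 CPM per kilobase in siRCC2 libraries and 180.0 ± 5.51 in siCtrl libraries.

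**Figure D4:**
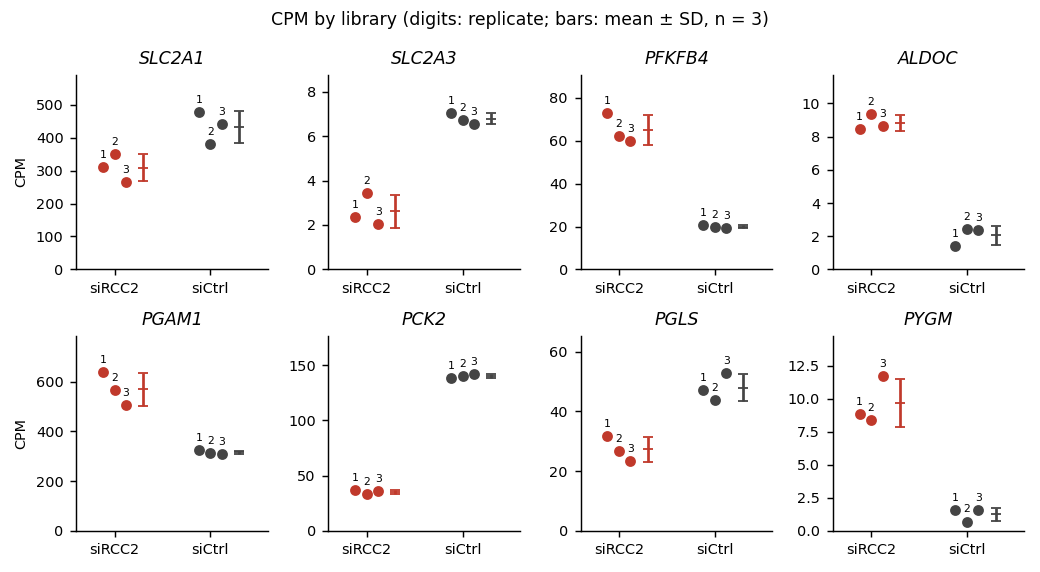
CPM (y axis, from 0) in siRCC2 and siCtrl replicates 1 to 3 (numbered points, with mean ± SD) for SLC2A1 and the 7 genes past the threshold with a log2 fold change of at least 0.8. The siRCC2 and siCtrl points do not overlap in any panel, and ALDOC, SLC2A3 and PYGM stay under 12 CPM.

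Of 3 genes of glycogen synthesis, 2 rose, where 20.7% of all tested genes rose. GYS1, the glycogen synthase of most tissues, had 80.2, 75.6 and 71.0 CPM in siRCC2 libraries, against 54.7, 55.5 and 50.7 CPM in siCtrl libraries (0.50 ± 0.08, edgeR adjusted p = 0.00298). GBE1, the branching enzyme, had 42.2, 38.8 and 40.4 CPM in siRCC2 libraries, against 28.1, 27.1 and 26.7 CPM in siCtrl libraries (0.57 ± 0.08, adjusted p = 0.00181). UGP2, which makes the UDP-glucose used by the synthase, did not pass (0.05 ± 0.14, adjusted p = 0.813). Phosphoglucomutases link glucose 6-phosphate to glycogen. PGM1 rose to 114, 98.3 and 97.5 CPM in siRCC2 libraries, against 84.9, 83.4 and 84.4 CPM in siCtrl libraries (0.29 ± 0.08, adjusted p = 0.0264), and PGM2, which acts mainly on pentose phosphates, fell to 28.5, 39.2 and 36.0 CPM in siRCC2 libraries, against 46.5, 50.7 and 49.8 CPM in siCtrl libraries (-0.50 ± 0.13, adjusted p = 0.0177). PGM1 lost its call with genes of at least 1 read kept (0.0646) and without any 1 of the siCtrl libraries or siRCC2 replicate 2 (0.0690 to 0.0874), and PGM2 without siCtrl replicate 2 or 3 (0.0604 and 0.0579).

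A second list of 62 further genes of the same pathways gave the surroundings. Of these 48 were tested, 11 rose, 14 fell and 23 did not pass, so 52.1% were called, against 41.8% of all tested genes. Its median log2 fold change was -0.22, against -0.02 over all tested genes. Its median level in siCtrl libraries was 26.4 CPM, against 18.9 CPM over all tested genes. Of all genes with a mean of at least 20 CPM, 49.4% were called. The list was chosen with earlier results of these data known. The 14 not tested, among them PKLR, PCK1 and GYS2, reached no more than 11 counts in 1 library. Of 18 further glycogen genes tested, 6 rose and 3 fell, against 20.7% of all tested genes that rose and 21.1% that fell, with a median log2 fold change of -0.01. The protein phosphatase targeting subunits PPP1R3B (1.1 ± 0.08, edgeR adjusted p = 0.000117) and PPP1R3C (0.68 ± 0.09), which bring the phosphatase to glycogen and favour its synthesis, rose. GYG1, glycogenin, the primer of glycogen (0.85 ± 0.10), and STBD1, a glycogen-binding protein (1.09 ± 0.11), rose too, and so did NHLRC1 and GAA. Of the targeting subunits, PPP1R3F (-1.78 ± 0.22) and PPP1R3D fell, and PHKA2 fell as well.

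Among carriers, BSG, the chaperone that brings MCT1 and MCT4 to the membrane, rose to 1184, 989 and 914 CPM in siRCC2 libraries, against 511, 506 and 499 CPM in siCtrl libraries (1.03 ± 0.10, edgeR adjusted p = 0.000342). The glucose transporter gene SLC2A6 rose (0.78 ± 0.09), while SLC2A8 and SLC2A4, the insulin-responsive GLUT4, fell, SLC2A4 on few reads. At the entry of pyruvate into mitochondria, the carrier subunit MPC2 rose (0.90 ± 0.07, adjusted p = 0.000154). Its partner MPC1 fell, but on few reads and with an adjusted p just under the threshold. The further pyruvate dehydrogenase components DLAT, DLD and PDHX and the phosphatase PDP2 fell, so 5 of the 8 further genes of this step fell and 1 rose, against 21.1% and 20.7% of all tested genes. ADPGK, an ADP-dependent glucokinase, fell (-0.87 ± 0.08, adjusted p = 0.000287).

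For glucose 6-phosphate, G6PC3 (-0.70 ± 0.09), the ubiquitous glucose 6-phosphatase, and SLC37A4 (-0.74 ± 0.09), its transporter into the endoplasmic reticulum, fell, and so did H6PD, which oxidises the sugar there. PRPS1, which turns ribose 5-phosphate into the precursor of nucleotides, rose to 147, 121 and 108 CPM in siRCC2 libraries, against 60.2, 70.8 and 55.6 CPM in siCtrl libraries (1.01 ± 0.14, edgeR adjusted p = 0.00146). The count of calls in this second list was 16 without siCtrl replicate 3. Over all genes, 5114 were called in that fit, against 6911 with every library.

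**Figure D5:**
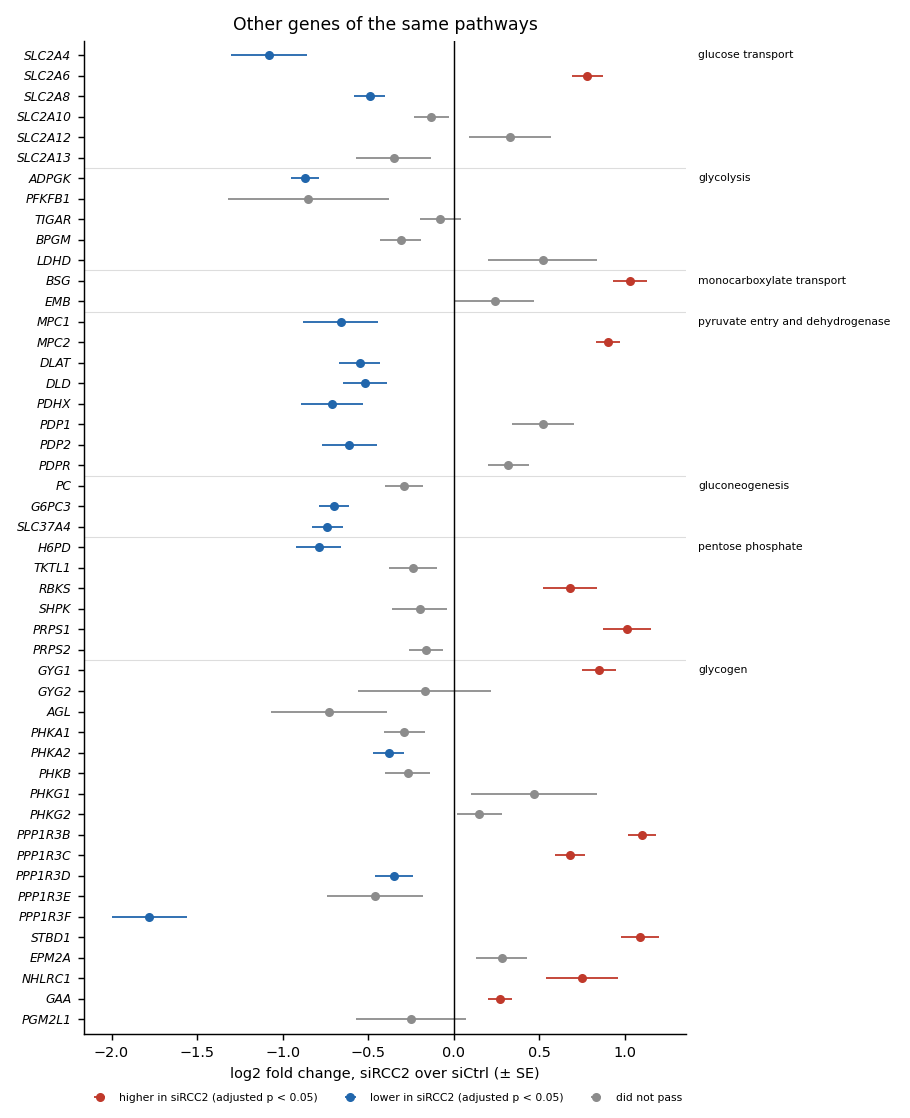
Log2 fold change of siRCC2 over siCtrl (x axis, points with SE) for the 48 tested genes of the second list, grouped by function. Red points are higher and blue points lower in siRCC2; values run from -1.78 for PPP1R3F to 1.1 for PPP1R3B.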

How the data were processed

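RNA sequencing of 6 DU145 libraries was used. Per the labels' protocols, total RNA went into an MGI library kit; strand, read length and annotation release are unknown here. Bowtie2, RSEM, DESeq2 and GRCh38 are named per the submitters' processing notes. The authors deposited whole-number counts per gene, so RSEM estimates may have been rounded. RSEM divides reads among similar genes, which affects genes with pseudogenes or overlapping loci. Coordinates are those of the deposited files.

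The test of these counts was edgeR 4.0.16 in R 4.3.3 (filterByExpr, TMM, quasi-likelihood F-test, threshold 0.05 on Benjamini-Hochberg adjusted p). Standard errors were derived from the F statistic (log2 fold change over its root). Levels are TMM-scaled CPM, and shares use the union of exons in GENCODE 29. The test was checked on simulated data that gave all genes and both groups the same spread, so that check does not cover groups of unequal spread. Libraries of 1 group differed by more than counting noise, and each was 1 replicate. Chi-square between pairs, over its degrees of freedom, was 13.1 to 31.9 in siRCC2 libraries and 9.56 to 9.9 in siCtrl libraries.

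Alternatives were DESeq2 1.42.0, limma 3.58.1 voom, other scalings and filters, a replicate block, left-out libraries, summed pseudogene rows and other lengths; summing with the row of most shared sequence was added after seeing the data. Every listed gene is named; counts per library are given for those past the threshold with a log2 change of at least 0.8 and a mean of 1 CPM, and CPM per library for the most abundant of each step and, beyond that rule, for others where the spread matters. Of the second list, values are given for the 12 with the smallest p. Members and lists were chosen with earlier results of these data known. Figures were made with Python 3.11.15 and matplotlib 3.10.9.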

Additional observations from a re-analysis of the deposited data

How the results depend on the processing

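Of the 30 calls, 19 held under each scaling, test, filter, replicate block and left-out library tried, and 11 were lost under 1 or more, none with a change of sign; 7 of the 18 genes that did not pass were called under some alternative. The number of listed genes called ranged from 29 to 33 over scalings, tests and filters and from 21 to 32 without 1 library; those lower ranged from 9 to 17, with 9 without siRCC2 replicate 2. Calls in the second list ranged from 16 to 28 without 1 library, and those lower in it from 8 to 15. Over all genes, calls ranged from 5112 (without siRCC2 replicate 2) to 7565 (without siRCC2 replicate 1) when 1 library was left out. The list's median log2 fold change was -0.047 with total counts alone and ranged from -0.080 (without siRCC2 replicate 1) to 0.014 without 1 library. The share of PFKM changed sign with no length correction (-0.290 percentage points). The share difference of PFKFB3 was 3.09 points with the union of exons and 1.45 points with the longest transcript length. With the latter its groups overlapped (exact permutation p = 0.6). Without 1 library, the share difference ranged from -1.1 to 1.1 points for PDK1, from -0.314 to 4.25 for PDK2 and from -0.933 to 0.845 for PYGB. Genes near 0 that did not pass changed sign: TALDO1 (-0.01 with upper-quartile scaling, -0.06 with total counts, -0.02 with genes of at least 1 read kept), PDK1 (-0.03) and UGP2 (-0.02) with total counts, and without 1 library TALDO1 (-0.10 to 0.07), PDK2 (-0.06 to 0.24), UGP2 (-0.06 to 0.14), TKT (-0.16 to 0.02) and GAPDH (-0.10 to 3.15e-05). Their cause was not tested.

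Replicate numbers did not pair the samples: same-numbered libraries had correlations of deviations of 0.059, -0.042 and 0.099. With the replicate number as a block 6295 genes were called, against 6911 without it, and 29 of the 48 listed genes; of the 30 calls SLC16A1 was lost (adjusted p = 0.0626). Genes under 10 CPM, such as PYGM, ALDOC and SLC2A3, rest on few reads.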
